A study of Mus musculus with 22 samples.

Results

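The 10 genes described here make bile acids in the liver or sense them: *Cyp7a1*, *Cyp8b1*, *Hsd3b7*, *Akr1d1*, *Cyp27a1*, *Cyp7b1*, *Slc27a5*, *Baat*, *Nr1h4* and *Nr0b2*. They were taken by name from a count table of 55573 genes, each symbol matched 1 row, and all 10 were among the 14062 genes whose counts averaged 10 or more across livers, which were the genes tested. The table holds mRNA-seq counts of 22 livers from C57BL/6 mice, aged 3 months per the study design. Cre mice (Albumin-Cre, wild-type *Flcn*) were fed chow (6 livers) or a diet without methionine and choline, MCD (5 livers), and FLCN KO mice (Albumin-Cre with both *Flcn* alleles floxed) were fed chow (5 livers) or MCD (6 livers). Chow held 10 kcal percent fat, and the diets were given from 6 weeks of age for 6 weeks. The study describes MCD as also rich in fat and sucrose, so MCD against chow compares whole diets. Both genotypes, and so all 22 mice, carried Albumin-Cre, which is active in hepatocytes. Whole-liver RNA also holds that of other liver cells, and the state of *Flcn* in each cell type was not measured here.

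Bile acids are made from cholesterol in hepatocytes. The classical route starts with CYP7A1, the rate-limiting 7α-hydroxylase, and CYP8B1 then adds the 12α-hydroxyl group that sets the share of cholic acid. The alternative route starts with the mitochondrial sterol 27-hydroxylase CYP27A1 and continues through the oxysterol 7α-hydroxylase CYP7B1. HSD3B7 and AKR1D1 modify the steroid ring in both routes, and SLC27A5 and BAAT join the finished acid to coenzyme A and then to taurine or glycine. Bile acids bind the nuclear receptor FXR, the product of *Nr1h4*, which induces the repressor SHP, the product of *Nr0b2*, and SHP lowers transcription of *Cyp7a1* and *Cyp8b1*. HNF4A and LRH-1, the product of *Nr5a2*, activate these genes, and FGF15 from the ileum represses *Cyp7a1* through the receptor FGFR4 and its partner KLB.

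Promoter windows of 300 bases, from 250 before to 50 after a start of transcription, were held in RefSeq (GRCm38.p6) for 6 of the 10 genes, namely *Cyp8b1*, *Cyp27a1*, *Nr1h4*, *Nr0b2*, *Akr1d1* and *Hsd3b7*. The window of *Nr1h4*, chr10:89506609-89506908 on the minus strand, lies inside the gene at chr10:89454234-89533585, so the outermost start of that gene was not searched. No window was used for *Cyp7a1*, *Cyp7b1*, *Baat* and *Slc27a5*. Each window was searched on both strands for CAAGGTCA and CAAGGCCA (letters that LRH-1 binds), CAAAGTCCA (letters that HNF4A binds) and GTCANTGAC (the inner letters of the FXR inverted repeat). The windows of *Cyp8b1*, chr9:121916256-121916555 on the minus strand, and *Nr0b2*, chr4:133553126-133553425 on the plus strand, are shown because they were the member windows that held a match, which is in capitals.
Cyp8b1: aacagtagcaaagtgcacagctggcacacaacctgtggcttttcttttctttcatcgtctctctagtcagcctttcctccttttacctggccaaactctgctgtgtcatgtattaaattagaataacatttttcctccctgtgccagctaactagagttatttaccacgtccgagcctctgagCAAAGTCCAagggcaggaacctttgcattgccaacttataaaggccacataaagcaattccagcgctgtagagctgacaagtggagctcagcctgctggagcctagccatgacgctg
Nr0b2: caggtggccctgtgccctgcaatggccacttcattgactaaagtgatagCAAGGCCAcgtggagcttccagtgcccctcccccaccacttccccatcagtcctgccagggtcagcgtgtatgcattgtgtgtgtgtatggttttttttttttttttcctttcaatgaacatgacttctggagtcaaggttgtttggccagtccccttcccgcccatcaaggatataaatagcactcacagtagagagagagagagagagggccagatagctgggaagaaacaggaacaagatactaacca
In *Cyp8b1* the letters CAAAGTCCA lay 67 to 59 bases before the start, and 0.475% of 32851 mouse promoter windows hold them. In *Nr0b2* the letters CAAGGCCA lay 201 to 194 bases before the start, as they do somewhere in 2.40% of all windows. CAAGGTCA (1.56% of all windows) and GTCANTGAC (0.387%) matched no member window. Such a match is a run of letters, with no binding measured here.

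Library totals ranged from 13751347 to 21144388 counts. Levels are given as CPM, counts relative to the library size after scaling with edgeR's TMM factors, which lay between 0.815 and 0.969 for chow and between 1.06 and 1.20 for MCD livers. Hepatocyte markers were abundant in all groups, led by *Alb* with a mean of 79159 CPM over all livers. Their summed level was 133263 ± 18850.0 CPM (SD, n = 6) in Cre Chow, 90867 ± 14172 (n = 5) in Cre MCD, 111185 ± 21018 (n = 5) in FLCN KO Chow and 74046 ± 8254 (n = 6) in FLCN KO MCD livers. The labels give no sex. By the counts of *Xist* and of Y-linked genes 12 livers were female and 10 male, and both occurred in every group. Libraries called female held 0 to 675 counts on Y-linked genes, against 1906 to 4321 in those called male. Cre MCD replicate 1 (675) and FLCN KO Chow replicate 2 (451) were the highest of the female ones, and the source of these counts was not tested. On chow the 5 male livers were also the 5 libraries with under 75% uniquely mapped reads in the study's library statistics, so sex and that share cannot be told apart there, and no MCD library was under 75%. Fits without these low-share chow libraries therefore set chow livers that are all female against MCD livers of both sexes. The clock gene *Dbp*, whose mRNA follows the time of day, was at 195 CPM in Cre Chow replicate 6 and 49.1 CPM in replicate 5, against 1.46 to 11.9 CPM in the other 4 Cre Chow livers. FLCN KO Chow livers lay between 3.53 and 28.7 CPM, Cre MCD livers between 34.8 and 131 CPM and FLCN KO MCD livers between 11.03 and 72.4 CPM. Several MCD libraries carried skeletal muscle RNA. Summed over 6 muscle markers, Cre MCD replicates 3, 4 and 1 were at 1682, 86.5 and 11.8 CPM and FLCN KO MCD replicate 3 was at 36.2 CPM, against 0.88 to 7.99 CPM in the chow livers and 0.77 to 1.76 CPM in the other MCD livers. The part of time of day and of muscle RNA in the results was not tested.

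*Flcn* itself (chr11:59791408-59810016, minus strand, GRCm38) was measured first, since the knockout deletes a single exon and leaves the rest of the transcript countable. On chow the FLCN KO livers were at 24.2, 19.96, 16.7, 19.4 and 21.8 CPM, and the 6 Cre livers ran from 26.1 through 31.8 to 40.2 CPM (lowest, median and highest). The groups did not overlap, and *Flcn* was lower in FLCN KO livers, with a log2 fold change of -0.63 ± 0.17 (fitted value ± SE, adjusted p = 0.0249). This p, like each adjusted p below unless named otherwise, comes from edgeR's quasi-likelihood test, adjusted over 14062 genes by the Benjamini-Hochberg method. It sets the fitted difference against the spread between mice of the same group, estimated over the 4 groups together. The call was lost without Cre Chow replicate 6 (adjusted p = 0.0564), FLCN KO Chow replicate 3 (0.0663) or FLCN KO Chow replicate 4 (0.0688). On MCD the 5 Cre livers were at 31.7, 18.2, 39.9, 32.5 and 23.6 CPM, and the 6 FLCN KO livers ran from 17.6 through 26.6 to 32.6 CPM. These overlapped, with a log2 fold change of -0.16 ± 0.17 (adjusted p = 0.567), so on MCD the level of *Flcn* did not separate the genotypes, which were taken from the labels. *Cyp46a1*, described below, did separate them there, at 54.7 to 146 CPM in FLCN KO and 0.517 to 1.69 CPM in Cre livers.

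MCD against chow asks how the diet changed the bile acid genes. In Cre mice 9 of the 10 genes fell and *Cyp7a1* did not pass the test, where 28.2% of all tested genes fell and 29.3% rose. In FLCN KO mice 7 of 10 fell, and *Cyp7a1*, *Nr1h4* and *Nr0b2* did not pass, where 22.5% of all tested genes fell and 22.5% rose. The median log2 fold change of the 10 genes was -1.42 in Cre and -1.09 in FLCN KO mice, beside medians of 0.012 and 0.0043 over all tested genes. Among 7 hepatocyte markers the median was -0.99 in Cre, where 6 fell, and -0.61 in FLCN KO mice, where 5 fell. In whole liver, fewer hepatocytes and less of an mRNA per hepatocyte cannot be told apart. With scaling by library size alone, an alternative chosen after seeing the data, the median of all genes moved to 0.43 in Cre and 0.27 in FLCN KO mice. The share of called genes that were higher on MCD was then 81.9% in Cre and 77.02% in FLCN KO mice, against 50.9% and 49.97% with TMM. The counts of 9 and 7 called members did not change with that scaling.

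**Figure D1:**
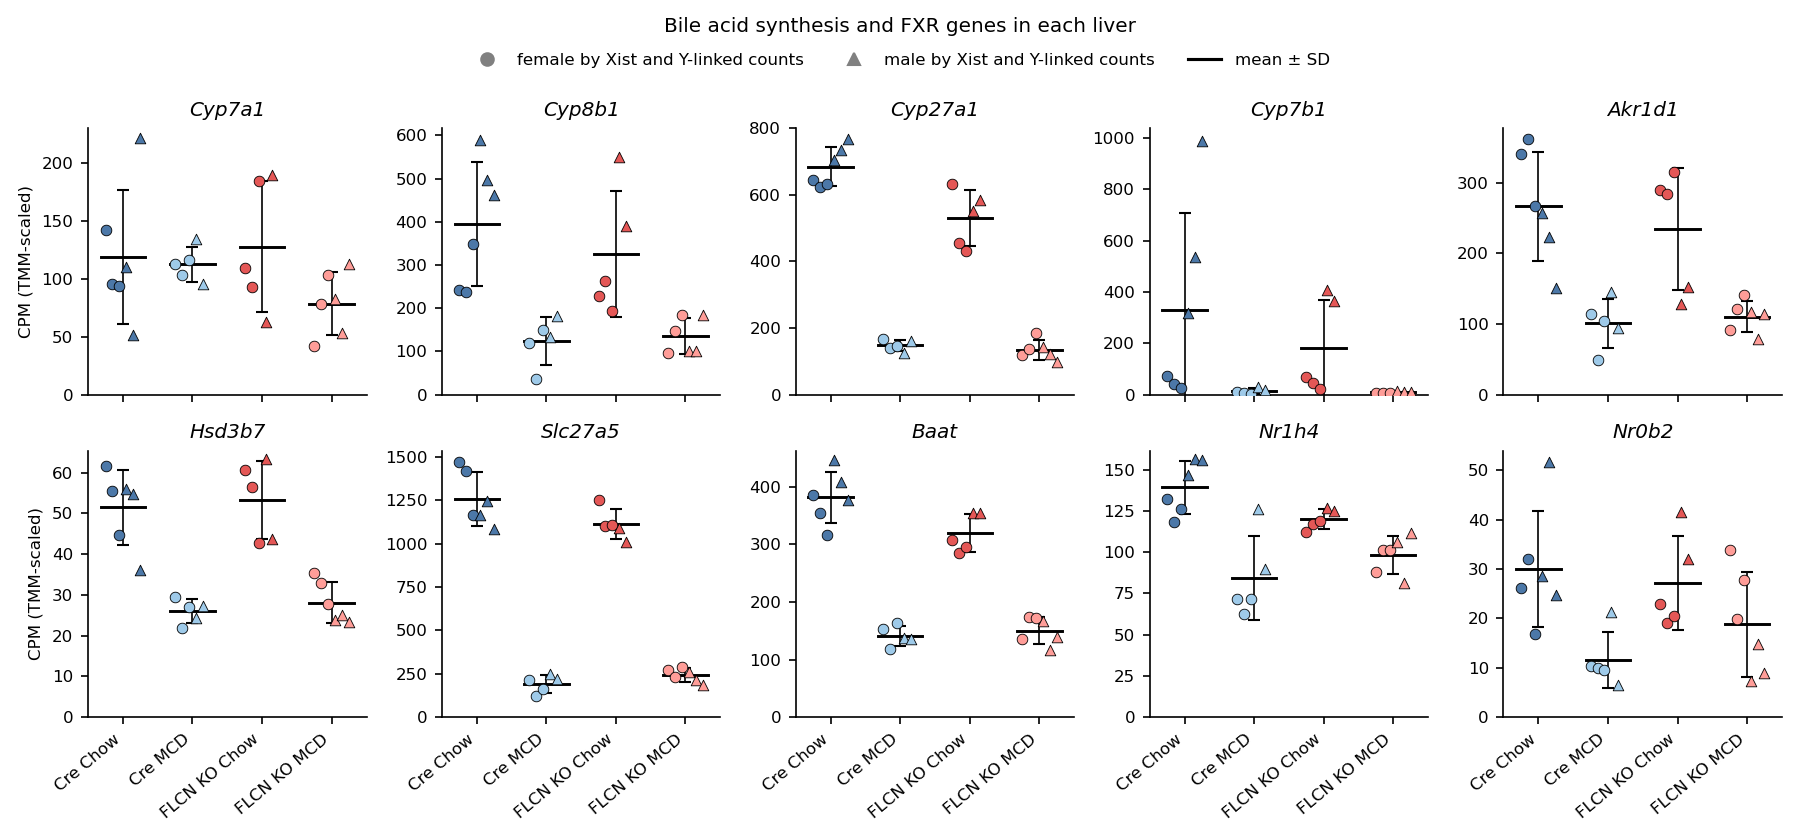
Level of each of the 10 genes in every liver, in TMM-scaled CPM on linear axes that start at 0, by genotype and diet. Points are livers (circles female, triangles male by their *Xist* and Y-linked counts), and lines and bars are mean ± SD. *Cyp27a1*, *Slc27a5* and *Baat* separate the diets in both genotypes, *Cyp7a1* does not, and the chow livers of *Cyp7b1* split by sex.

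*Cyp7a1* (chr4:6265612-6275633, minus strand) showed no diet difference that passed the test. Cre Chow livers ran from 51.3 through 103 to 222 CPM, and Cre MCD livers were at 113, 103, 135, 95.3 and 117 CPM. All 5 MCD livers lay inside the range of the chow livers, with a log2 fold change of -0.080 ± 0.32 (adjusted p = 0.845). The fitted value turned to 0.19 without Cre Chow replicate 6, the liver highest in *Cyp7a1* and in *Dbp*. FLCN KO Chow livers were at 62.4, 109, 189.8, 93.1 and 185 CPM, and FLCN KO MCD livers ran from 41.9 through 80.5 to 113 CPM. These overlapped, and the fitted change of -0.70 ± 0.32 missed the threshold (adjusted p = 0.0761). It passed without FLCN KO Chow replicate 1 (0.0272), FLCN KO MCD replicate 4 (0.0471) or Cre Chow replicate 6 (0.0483), and without the 5 chow libraries of low uniquely mapped share (0.0366).

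*Cyp8b1* (chr9:121914356-121916305, minus strand), whose promoter window is shown above, fell on MCD in both genotypes. Cre Chow livers ran from 237 through 405 to 589.5 CPM and Cre MCD livers were at 120.3, 35.4, 134, 182 and 149 CPM. The groups did not overlap, and the log2 fold change was -1.67 ± 0.35 (adjusted p = 0.000404). In FLCN KO mice the chow livers were at 549, 229, 390.3, 264 and 194 CPM and the MCD livers ran from 95.4 through 125 to 184 CPM. The lowest chow liver was just above the highest MCD liver, and the log2 fold change was -1.26 ± 0.34 (adjusted p = 0.00454), a call lost without the 5 chow libraries of low uniquely mapped share (-0.76, adjusted p = 0.0790) and in a fit of the female livers alone (-0.69, adjusted p = 0.174). Counts of *Cyp8b1* per count of *Cyp7a1* in the same liver had a median of 3.09 in Cre Chow, 1.06 in Cre MCD, 2.10 in FLCN KO Chow and 1.83 in FLCN KO MCD livers. This ratio ranged from 1.71 to 9.67 among Cre Chow livers alone, and it is given as a description with no test.

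The ring-modifying enzymes fell too. *Akr1d1* (chr6:37530173-37568815, plus strand), the Δ4-3-oxosteroid 5β-reductase, was at 267 ± 77.4 CPM (SD, n = 6) in Cre Chow and 101 ± 34.6 CPM (n = 5) in Cre MCD livers, a log2 fold change of -1.40 ± 0.27 (adjusted p = 0.000166) without overlap. In FLCN KO mice it was at 234 ± 86.5 CPM (n = 5) on chow and 111 ± 22.5 CPM (n = 6) on MCD, or -1.08 ± 0.26 (adjusted p = 0.00201). There the chow livers, at 129 to 316 CPM, overlapped the MCD livers, at 78.5 to 142 CPM, and in the male livers alone the change was -0.47 (adjusted p = 0.248), which lost the call. *Hsd3b7* (chr7:127800604-127803802, plus strand), which oxidizes the 3β-hydroxyl group, was at 51.4 ± 9.31 CPM (n = 6) in Cre and 53.4 ± 9.58 CPM (n = 5) in FLCN KO livers on chow. On MCD it was at 25.96 ± 2.94 CPM (n = 5) and 28.1 ± 5.00 CPM (n = 6). It fell by 0.99 ± 0.15 in Cre (adjusted p = 7.01e-06) and 0.93 ± 0.14 in FLCN KO mice (adjusted p = 2.01e-05), and the diet groups overlapped in neither genotype.

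Both enzymes of the alternative route fell in both genotypes. For *Cyp27a1* (chr1:74713574-74737892, plus strand), Cre Chow livers ran from 623 through 674 to 767 CPM and Cre MCD livers were at 167, 138, 126, 161 and 146 CPM. In FLCN KO mice the chow livers were at 552, 631, 584, 456 and 432 CPM and FLCN KO MCD livers ran from 98.5 through 129.7 to 184 CPM. Every MCD liver was far below every chow liver, and the log2 fold changes were -2.21 ± 0.14 in Cre (adjusted p = 6.17e-11) and -1.99 ± 0.13 in FLCN KO mice (adjusted p = 3.26e-10). *Cyp7b1* (chr3:18071950-18243338, minus strand) had the largest fitted change of the 10 genes, -4.58 ± 0.97 in Cre (adjusted p = 0.000385) and -4.22 ± 0.90 in FLCN KO mice (adjusted p = 0.000605), and also the largest SE. Without 1 liver these changes ranged from -5.07 to -3.85 and from -4.51 to -3.68. Cre Chow livers ran from 26.1 through 193 to 987 CPM, and Cre MCD livers were at 10.6, 5.43, 29.7, 19.3 and 3.94 CPM. The lowest chow liver, a female, lay below the highest MCD liver, a male, so the Cre groups overlapped. FLCN KO Chow livers were at 407, 67.8, 364, 44.9 and 19.8 CPM and FLCN KO MCD livers between 6.27 and 13.8 CPM, without overlap. With the uniquely mapped share as a covariate the change in Cre mice was -1.19 (adjusted p = 0.0743), which lost the call, and that in FLCN KO mice was -2.02 (adjusted p = 0.00183). Without the low-share chow libraries, which leaves female chow livers against MCD livers of both sexes, these changes were -1.76 and -2.19. In the female livers alone they were -2.79 and -2.67.

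The conjugating enzymes fell in both genotypes as well. *Slc27a5* (chr7:12988346-12998192, minus strand), the bile acid coenzyme A ligase, ran from 1084 through 1206 to 1470.2 CPM in Cre Chow livers and was at 211, 119.7, 248, 221 and 163 CPM in Cre MCD livers. Livers of FLCN KO mice on chow were at 1091, 1251, 1012, 1103 and 1107 CPM and FLCN KO MCD livers ran from 185 through 247 to 291 CPM. The diets were separated by a wide gap, with log2 fold changes of -2.71 ± 0.16 in Cre (adjusted p = 2.90e-11) and -2.20 ± 0.15 in FLCN KO mice (adjusted p = 4.12e-10). *Baat* (chr4:49489422-49506557, minus strand), the acyltransferase that adds the amino acid, was at 382 ± 44.6 CPM (n = 6) in Cre Chow and 141 ± 17.6 CPM (n = 5) in Cre MCD livers. In FLCN KO livers it was at 319.7 ± 32.9 CPM (n = 5) on chow and 150.4 ± 23.3 CPM (n = 6) on MCD. It fell by 1.43 ± 0.12 in Cre (adjusted p = 2.33e-09) and 1.09 ± 0.11 in FLCN KO mice (adjusted p = 1.51e-07), again without overlap.

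*Nr1h4* and *Nr0b2*, of the FXR arm, fell in Cre mice and did not pass the test in FLCN KO mice. For *Nr1h4* (chr10:89454234-89533585, minus strand), Cre Chow livers ran from 118 through 139 to 157 CPM, and Cre MCD livers were at 71.3, 62.3, 126, 89.6 and 71.7 CPM. Replicate 3, the liver with most muscle RNA, was the one Cre MCD liver inside the chow range. The log2 fold change was -0.73 ± 0.14 (adjusted p = 0.000130), and -0.92 without that liver. In the male livers alone it was -0.48 and missed the threshold (adjusted p = 0.0606). FLCN KO Chow livers were at 127, 112, 125, 117 and 119 CPM and FLCN KO MCD livers ran from 81.3 through 101 to 112 CPM. These groups did not overlap, yet the fitted change of -0.29 ± 0.14 missed the threshold (adjusted p = 0.0922). It passed without Cre MCD replicate 3 (0.0227), in a fit of the FLCN KO livers alone (0.0154), with sex as a covariate (-0.31, adjusted p = 0.0282) and in the female livers alone (-0.26, adjusted p = 0.0472). For *Nr0b2* (chr4:133553376-133556536, plus strand), Cre Chow livers ran from 16.7 through 27.3 to 51.7 CPM, and Cre MCD livers were at 10.3, 10.04, 21.2, 6.50 and 9.53 CPM, where replicate 3 again was highest and the one inside the chow range. The log2 fold change was -1.38 ± 0.38 (adjusted p = 0.00355), and -0.97 with the uniquely mapped share as a covariate (adjusted p = 0.0517). In the male livers alone it was -1.31 (adjusted p = 0.0646), which lost the call. Livers of FLCN KO mice on chow were at 41.5, 22.9, 32.1, 18.97 and 20.5 CPM, and FLCN KO MCD livers ran from 7.24 through 17.3 to 33.9 CPM. They overlapped over much of their range, with a log2 fold change of -0.53 ± 0.36 (adjusted p = 0.240). In fits of 1 sex alone *Nr0b2* was called lower on MCD in male FLCN KO livers (-1.85, adjusted p = 0.0198) and was at 0.39 in female ones (adjusted p = 0.168). Passing in one genotype and not in the other is no test of a difference, which is given next.

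Comparing FLCN KO with Cre livers within a diet, and their responses to MCD with each other (the interaction), asks whether loss of *Flcn* changed these genes or how they responded. On chow 0 of 10 genes were called, where 5.52% of all tested genes were higher and 3.10% lower in FLCN KO livers. At an unadjusted p under 0.05 there were 2 genes, *Cyp27a1* (-0.37 ± 0.13, adjusted p = 0.0869) and *Baat* (-0.26 ± 0.11, adjusted p = 0.171). On MCD 0 of 10 were called, where 8.06% of all tested genes were higher and 8.53% lower, and 1 gene, *Slc27a5* (0.33 ± 0.15, adjusted p = 0.136), had an unadjusted p under 0.05. The interaction was called for 0 of 10, where 3.29% of all tested genes had a positive and 5.54% a negative one. At an unadjusted p under 0.05 there were 3, namely *Slc27a5* (0.51 ± 0.21, adjusted p = 0.135), *Nr1h4* (0.44 ± 0.19, adjusted p = 0.158) and *Baat* (0.35 ± 0.16, adjusted p = 0.186), where a positive value is a smaller fall in FLCN KO mice. The median interaction was 0.35 over the 10 genes, 0.29 over the 7 hepatocyte markers, of which 6 were positive, and 0.030 over all tested genes. The hepatocyte marker *Ttr* was called (0.60 ± 0.15, adjusted p = 0.0163), and the part of hepatocyte content in the members' values was not tested. For *Nr0b2* the interaction was 0.84 ± 0.52 (adjusted p = 0.338) and for *Cyp7a1* -0.62 ± 0.45 (adjusted p = 0.421). DESeq2 and limma-voom also called 0 of 10 in these 3 comparisons, with 2, 1 and 3 genes at an unadjusted p under 0.05. Without Cre MCD replicate 3, *Nr1h4* was called on MCD (0.42, adjusted p = 0.0110) and in the interaction (0.63, adjusted p = 0.0108). With scaling by library size alone 92.1% of called genes were higher on chow, against 64.0% with TMM, and 12.5% of called interactions were positive, against 37.3%. The fitted differences on MCD were 0.089 ± 0.11 for *Baat* and -0.51 ± 0.83 for *Cyp7b1*, so the 10 genes were resolved to unequal degrees.

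**Figure D2:**
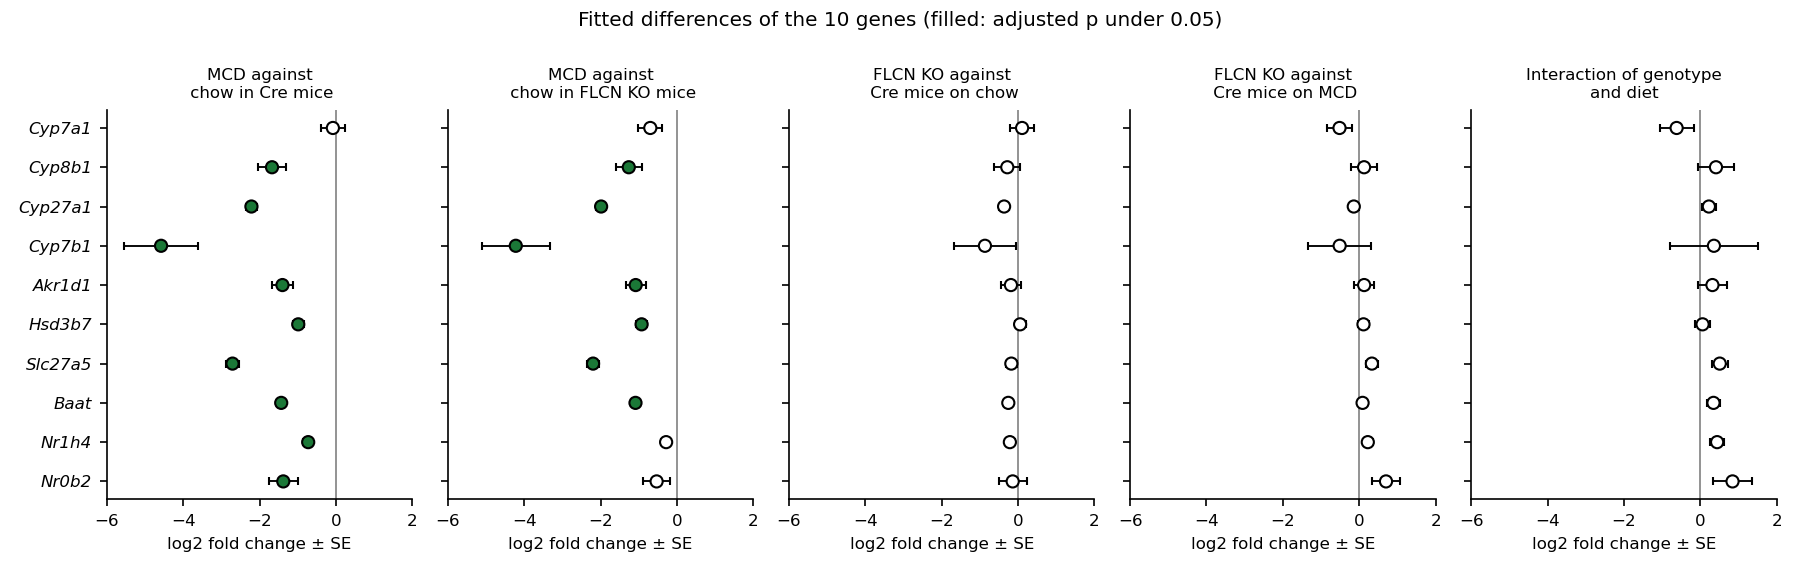
Fitted log2 fold change ± SE of the 10 genes in each comparison, with filled points where the adjusted p was under 0.05. All filled points lie left of 0 in the panels of MCD against chow, 9 in Cre and 7 in FLCN KO mice, and none is filled in the genotype and interaction panels.

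Sex as read from the counts moved with several of these genes, and the following fit of 8 groups (genotype, diet and sex) was added after seeing the data. On chow, *Cyp7b1* was at 522 ± 272 CPM (SD, n = 5) in male and 45.4 ± 20.8 CPM (n = 6) in female livers, with no overlap and a log2 difference of 3.42 ± 0.34 (edgeR, adjusted p = 8.80e-07). *Cyp8b1* was higher in male livers too, at 498 ± 77.2 against 252 ± 51.9 CPM, a log2 difference of 0.97 ± 0.27 (adjusted p = 0.0254). *Akr1d1* was lower in male livers, at 183 ± 54.8 against 309.8 ± 36.4 CPM, or -0.85 ± 0.20 (adjusted p = 0.00948). These were 2 of 10 genes higher and 1 lower, where 5.38% of all tested genes were higher and 6.46% lower in male livers. The same livers differ in their uniquely mapped share on chow. On MCD, where no library was under 75%, 0 of 10 genes were called, beside 0.256% of all tested genes higher and 0.178% lower. At an unadjusted p under 0.05 there were *Cyp7b1* (1.35 ± 0.34, adjusted p = 0.0845) and *Nr1h4* (0.35 ± 0.093, adjusted p = 0.118) on MCD.

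On MCD 8 of 10 genes fell in female livers, where 28.2% of all tested genes fell, and *Cyp7a1* and *Nr0b2* did not pass. In male livers 9 of 10 fell, all but *Cyp7a1*, where 24.4% of all tested genes fell. The difference between the sexes was called for 2 of 10 genes, where 7.48% of all tested genes were called in either direction. *Cyp7b1* changed by -4.80 ± 0.40 in male and -2.73 ± 0.33 in female livers, a difference of -2.07 ± 0.47 (adjusted p = 0.0129). *Akr1d1* changed by -0.63 ± 0.21 in male and -1.60 ± 0.19 in female livers, a difference of 0.96 ± 0.28 (adjusted p = 0.0424). *Nr0b2* fell by 1.58 ± 0.29 in male livers (adjusted p = 0.000169) and had a fitted change of -0.47 ± 0.25 in female livers (adjusted p = 0.120), but the difference missed the threshold (-1.11 ± 0.38, adjusted p = 0.0784).

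**Figure D3:**
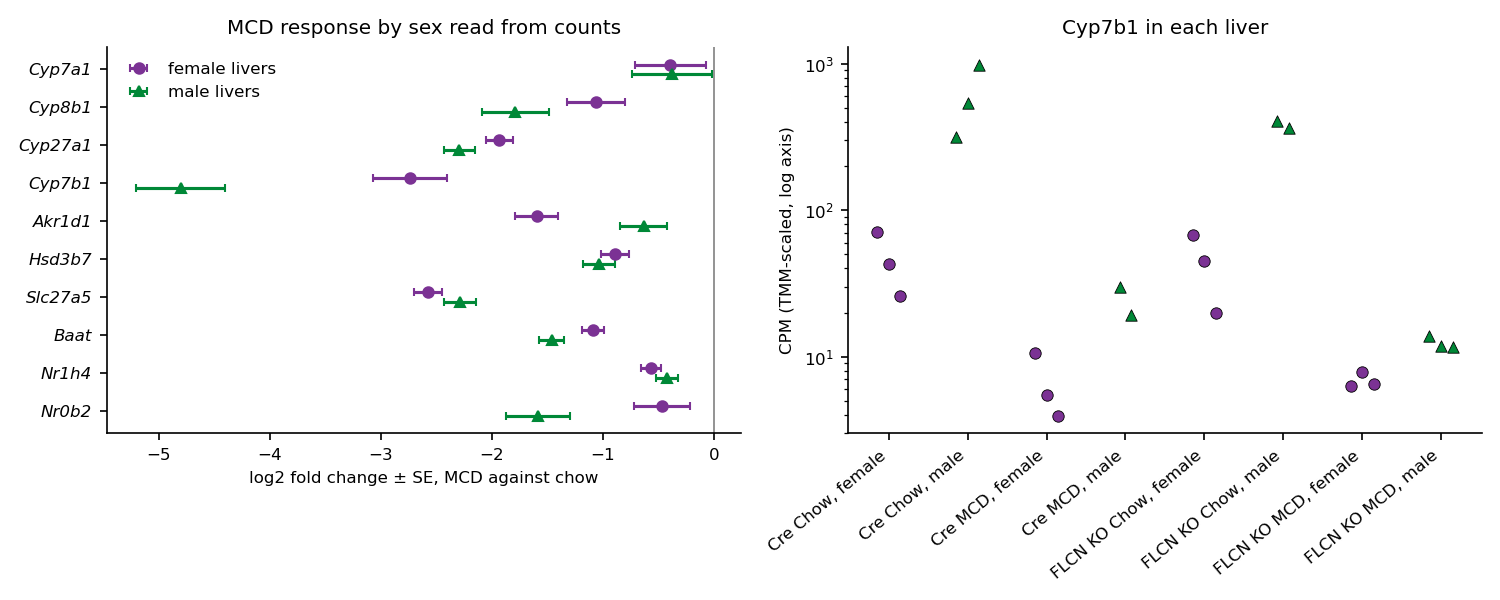
Left, fitted log2 fold change ± SE of MCD against chow for the 10 genes in female (circles) and male (triangles) livers. Right, *Cyp7b1* in each liver in CPM on a log axis, where male livers on chow lie at 316 CPM or more and female livers on chow at 70.5 CPM or less.

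Within the female MCD livers, FLCN KO livers were higher than Cre livers in 3 of 10 genes, where 6.12% of all tested genes were higher. *Nr0b2* was at 33.9, 19.9 and 27.8 CPM in FLCN KO and 10.3, 10.04 and 9.53 CPM in Cre livers. The groups did not overlap, with a log2 difference of 1.45 ± 0.36 (adjusted p = 0.0129). *Nr1h4* differed by 0.50 ± 0.13 (adjusted p = 0.0128) and *Slc27a5* by 0.69 ± 0.17 (adjusted p = 0.0118). Other measures moved with genotype in the same 6 livers. Summed macrophage markers were at 728, 527 and 656 CPM in the Cre and 307, 411 and 430 CPM in the FLCN KO livers, and *Dbp* at 48.96, 36.7 and 34.8 CPM and 21.6, 13.5 and 16.2 CPM, neither with overlap. The FLCN KO liver highest in *Nr0b2*, replicate 3, carried 36.2 CPM of muscle markers, and Cre replicate 1 carried 11.8 CPM. The part of these in the 3 calls was not tested. Within the male MCD livers 0 of 10 were called higher, where 4.64% of all tested genes were, with 0 at an unadjusted p under 0.05, and the fitted differences were -0.42 ± 0.40 for *Nr0b2*, -0.11 ± 0.14 for *Nr1h4* and -0.095 ± 0.19 for *Slc27a5*. Cre MCD held 2 male livers, replicates 3 and 4, and both carried muscle RNA (1682 and 86.5 CPM), so no male Cre liver on MCD was free of it. The test of the difference between the sexes called 0 of 10 genes, where 0.228% of all tested genes were called, with values of 1.88 ± 0.54 (adjusted p = 0.257) for *Nr0b2*, 0.61 ± 0.19 (0.284) for *Nr1h4* and 0.78 ± 0.25 (0.315) for *Slc27a5*, and these 3 were at an unadjusted p under 0.05.

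Per length of exonic sequence, as RPKM (CPM per kilobase of exons), the order of mean levels ± SD in Cre Chow livers was *Slc27a5* (516 ± 62.9), *Cyp27a1* (315 ± 27.4), *Cyp8b1* (203 ± 73.7), *Baat* (197 ± 22.96), *Cyp7b1* (152 ± 175), *Akr1d1* (92.2 ± 26.8), *Nr1h4* (60.4 ± 7.01), *Cyp7a1* (28.5 ± 13.9), *Nr0b2* (26.5 ± 10.4) and *Hsd3b7* (18.6 ± 3.36). *Cyp8b1*, *Baat*, *Cyp7b1* and *Akr1d1* were not all separated by their spread, and neither were *Cyp7a1*, *Nr0b2* and *Hsd3b7*. The mean of *Cyp7b1* pools 3 female livers at 46.5 ± 22.4 CPM and 3 male livers at 613 ± 341 CPM, so its place in this order rests on a mean over unlike livers. In Cre MCD livers *Slc27a5* (78.97 ± 20.9), *Baat* (72.9 ± 9.05), *Cyp27a1* (67.9 ± 7.76) and *Cyp8b1* (63.6 ± 28.02) lay within their spread of each other. *Cyp7a1* (26.97 ± 3.58) was there next to *Akr1d1* (34.9 ± 11.9) and *Nr1h4* (36.5 ± 11), and *Cyp7b1* (6.37 ± 4.95) was last, beside *Hsd3b7* (9.37 ± 1.06).

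By the Pearson correlation of log2 CPM over the 22 livers, which share the diet and depth differences of their groups, the genes most like *Cyp8b1* were *Serpina1a* (r = 0.93), *Hao1* (0.92), *Gm8893* (0.91), *Mup17* (0.91) and *Serpina1c* (0.91). Several of these belong to families of near-identical copies, so their counts are uncertain. After removing group means, r was 0.74 to 0.82 for these. Most like *Nr0b2* were *Ftcd* (r = 0.86), *Ccnl2* (0.84), *Ggnbp1* (0.83), *Ppp6r2* (0.83) and *Cyb5d2* (0.82), and most like *Cyp7a1* were *Foxn2* (r = 0.75), *Stim2* (0.74), *Topbp1* (0.73), *Ss18* (0.71) and *Tmod3* (0.70). No other member of the set was among the 5 for any of these genes.

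Other enzymes and carriers of bile acid synthesis were taken from a list of 22 genes. Of 21 tested, 11 fell and 4 rose in Cre mice and 10 fell and 4 rose in FLCN KO mice, with median log2 fold changes of -0.60 and -0.065. Here and for the lists that follow, the shares to read these counts against are the 28.2% of all tested genes that fell and 29.3% that rose in Cre mice and the 22.5% that did either in FLCN KO mice. The share of this list that fell was above those, and the share that rose was below them. *Cyp2c70*, which makes muricholic acids in the mouse, fell from 1108 ± 86.1 to 145 ± 73.3 CPM in Cre (-2.94 ± 0.31, adjusted p = 7.10e-08) and by 2.86 ± 0.29 in FLCN KO mice. *Akr1c6*, a hydroxysteroid dehydrogenase, fell by 1.86 ± 0.14 and 1.52 ± 0.13, and the peroxisomal carrier *Scp2* by 1.42 ± 0.36 and 0.87 ± 0.35. The fall of *Scp2* in FLCN KO mice was called in 8 of 22 fits that left out 1 liver and 7 of 13 other alternatives, and was -0.082 with the uniquely mapped share as a covariate (adjusted p = 0.653). In Cre mice it was -0.17 with the uniquely mapped share as a covariate (adjusted p = 0.386), which lost the call, and -0.38 without the low-share chow libraries. *Stard4*, a cholesterol carrier, fell by 0.96 ± 0.18 and 1.34 ± 0.18. *Cyp39a1*, the 7α-hydroxylase of 24-hydroxycholesterol, rose from 38.98 ± 17 to 98.3 ± 23.8 CPM in Cre (1.33 ± 0.31, adjusted p = 0.00107) and by 2.30 ± 0.34 in FLCN KO mice (adjusted p = 1.13e-05). *Ch25h*, the cholesterol 25-hydroxylase, had at most 12 counts in any liver and was not tested.

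The gene of this list that differed most between the genotypes was *Cyp46a1*, the cholesterol 24-hydroxylase, best known from the brain. On chow the FLCN KO livers were at 99.998, 24.5, 53.1, 59.3 and 31.8 CPM and the Cre livers between 0.949 and 3.22 CPM. On MCD the FLCN KO livers ran from 54.7 through 97.3 to 146 CPM and the Cre livers were at 1.24, 0.517, 1.69, 1.36 and 1.23 CPM. The genotypes were far apart on both diets, with log2 fold changes of 4.54 ± 0.38 (adjusted p = 6.13e-08) and 6.34 ± 0.44 (adjusted p = 6.08e-09). Over the other alternatives the value on chow ranged from 3.615 to 5.81. Both differences were called in 22 of 22 fits that left out 1 liver. The interaction of 1.80 ± 0.54 (adjusted p = 0.0393) was called in 8 of 22 such fits, and it was 0.35 in the male livers alone (adjusted p = 0.902). *Akr1c6* (-0.44 ± 0.13, adjusted p = 0.0401) and *Acnat2* (-1.52 ± 0.45, adjusted p = 0.0394), an acyltransferase with a near copy beside it, were lower in FLCN KO livers on chow, each called in 15 of 22 such fits. Of 13 other alternatives, 5 called *Akr1c6* and 8 called *Acnat2*. On MCD, *Cyp2a12* (-0.66 ± 0.11, adjusted p = 0.000225) and *Stard4* (-0.77 ± 0.18, adjusted p = 0.00488) were lower in FLCN KO livers. In all, 1 of 21 was higher and 2 lower on chow, 1 was higher and 3 lower on MCD, and fits that left out 1 liver gave 1 to 5 calls on chow and 3 to 5 on MCD. The shares to compare are 5.52% of all tested genes higher and 3.10% lower on chow and 8.06% and 8.53% on MCD.

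Among 20 tested transcription factors that act on these genes, 11 fell and 2 rose in Cre mice on MCD, and 7 fell and 3 rose in FLCN KO mice, with medians of -0.31 and -0.21. The share that fell was above that of all tested genes and the share that rose below it, but male livers alone gave 5 calls in place of 13 in Cre and 3 in place of 10 in FLCN KO mice. The largest falls were those of *Onecut1* (-2.77 ± 0.63 in Cre and -2.31 ± 0.60 in FLCN KO), *Nfil3* (-2.11 ± 0.36 and -1.59 ± 0.34), a repressor tied to the clock, and *Foxa2* in Cre (-1.44 ± 0.21, with -0.68 ± 0.21 in FLCN KO). In the male livers alone the FLCN KO values were -1.23 for *Onecut1* (adjusted p = 0.380) and -0.15 for *Foxa2* (adjusted p = 0.637), which lost both calls. The clock gene *Dbp* differed between livers as given above. *Nr5a2*, which encodes LRH-1, fell from 77.7 ± 10.7 to 47.8 ± 8.90 CPM in Cre (-0.70 ± 0.14, adjusted p = 0.000183) and by 0.59 ± 0.14 in FLCN KO mice (adjusted p = 0.00129). *Hnf4a*, which is also among the hepatocyte markers, fell by 0.68 ± 0.12 in Cre mice (adjusted p = 7.01e-05), and its change of -0.20 ± 0.12 in FLCN KO mice missed the threshold (adjusted p = 0.182), with an interaction of 0.48 ± 0.17 (adjusted p = 0.0806). *Nr1h3*, which encodes LXRα, fell by 0.29 ± 0.092 in Cre and 0.39 ± 0.092 in FLCN KO mice and *Rxra*, the partner of FXR, by 0.39 ± 0.13 and 0.38 ± 0.12, but with scaling by library size alone the Cre values turned to 0.13 and 0.031. *Mafg*, a repressor that FXR induces, rose by 0.42 ± 0.12 and 0.55 ± 0.12. Between genotypes, the coactivator *Ppargc1a* was higher in FLCN KO livers on MCD (1.10 ± 0.21, adjusted p = 0.000961).

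Of 9 tested receptors and signals, 4 fell and 3 rose in Cre mice and 3 fell and 2 rose in FLCN KO mice, with medians of 0.10 and 0.17. On a list this short these shares are near those of all tested genes, and in FLCN KO mice scaling by library size alone gave 8 calls and male livers alone 3 in place of 5. *Fgfr4* fell from 58.7 ± 8.10 to 23.3 ± 6.92 CPM in Cre (-1.33 ± 0.18, adjusted p = 2.13e-06) and by 1.18 ± 0.17 in FLCN KO mice. *Klb* fell in Cre mice from 35.1 ± 4.73 to 19.9 ± 3.06 CPM (-0.82 ± 0.17, adjusted p = 0.000303), while FLCN KO livers were at 23.6 ± 7.27 CPM on chow and 26.7 ± 5.00 CPM on MCD (0.17 ± 0.17, adjusted p = 0.415). The interaction was 1.00 ± 0.24 (adjusted p = 0.0132), called in 22 of 22 fits that left out 1 liver, and *Klb* was lower in FLCN KO livers on chow (-0.57 ± 0.17, adjusted p = 0.0359, in 14 of 22 such fits). Of 12 other alternatives 10 called the interaction, which was lost with the replicate block and in the male livers alone. The difference on chow was called in 6 of 13 other alternatives. *Fgf15* had 0 counts in all 22 livers, where a count of 0 allows up to 3 counts per library. *Fgf21*, a hormone that signals through KLB, rose by 4.33 ± 0.50 in Cre and 3.50 ± 0.54 in FLCN KO mice. On MCD it was lower in FLCN KO livers, at 15.4 ± 4.16 against 46.3 ± 36.2 CPM (-1.59 ± 0.43, adjusted p = 0.0129, in 21 of 22 fits that left out 1 liver). It was not called without Cre MCD replicate 2 (-1.02, adjusted p = 0.0772). *Egfr*, the receptor of epidermal growth factor, fell by 3.06 ± 0.57 and 3.13 ± 0.55. With the uniquely mapped share as a covariate these values were -1.40 and -2.09, and in Cre mice it was -1.66 without the low-share chow libraries and -1.96 in the female livers alone. *Tnfrsf1a*, a receptor of tumour necrosis factor, rose by 0.76 ± 0.084 and 0.33 ± 0.085, with an interaction of -0.42 ± 0.12 (adjusted p = 0.0299, in 17 of 22 such fits). That interaction was called in 7 of 12 other alternatives, and was -0.50 in the female (adjusted p = 0.0551) and -0.30 in the male livers alone (0.618).

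**Figure D4:**
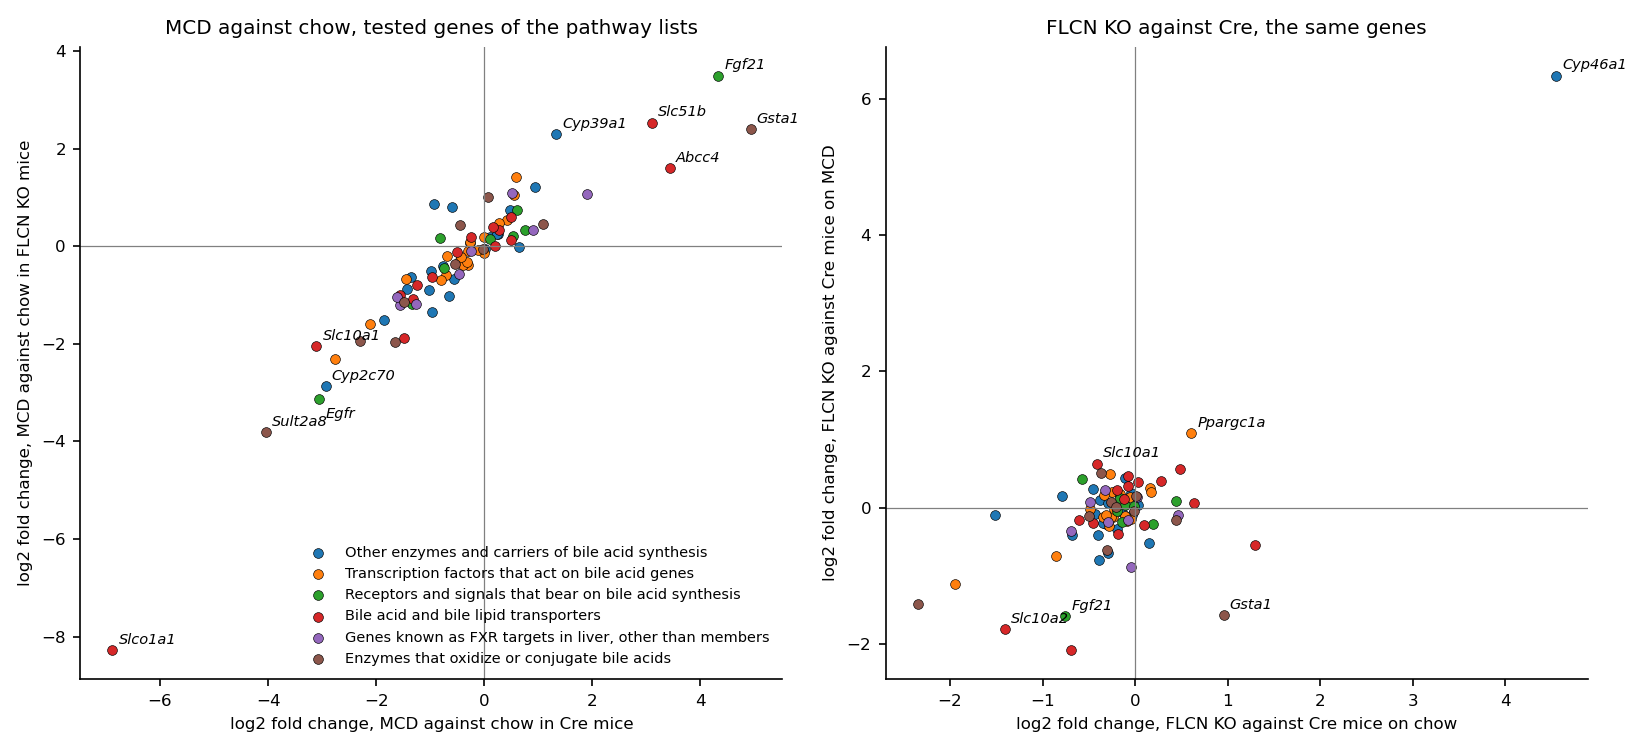
Fitted log2 fold changes of the tested genes of the 6 pathway lists, coloured by list. Left, MCD against chow in FLCN KO mice (vertical axis) against the same in Cre mice. Right, FLCN KO against Cre mice on MCD (vertical) against the same on chow, where *Cyp46a1* stands apart at 4.54 and 6.34.

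Of 16 tested transporters of bile acids and bile lipids, 8 fell and 3 rose in Cre mice and 7 fell and 2 rose in FLCN KO mice, with medians of -0.38 and -0.059. The share that fell was above that of all tested genes and the share that rose below it. *Slc10a1*, the sodium-dependent uptake carrier NTCP, fell from 868 ± 60.3 to 101 ± 35.01 CPM in Cre (-3.11 ± 0.23, adjusted p = 4.45e-10) and from 652 ± 42.03 to 157 ± 46.5 CPM in FLCN KO mice (-2.05 ± 0.21, adjusted p = 1.02e-07). The fall was smaller in FLCN KO mice, with an interaction of 1.06 ± 0.29 (adjusted p = 0.0262), called in 21 of 22 fits that left out 1 liver. It was not called without FLCN KO Chow replicate 4 (adjusted p = 0.0515), without the low-share chow libraries (0.0993), with the replicate block (0.0783) or in fits of 1 sex (1.35, adjusted p = 0.0682 in female livers and 0.68, adjusted p = 0.431 in male livers). *Slco1a1*, an organic anion carrier of the same membrane, fell by 6.88 ± 1.27 and 8.28 ± 1.29, from means of 379 and 234 CPM to 3.22 and 0.714 CPM. On MCD it had 8 to 283 counts per liver in Cre and 2 to 59 in FLCN KO mice, which limits the precision of these values. Its fold varied with the libraries used. Cre Chow livers ran from 34.8 through 295 to 911 CPM and Cre MCD livers from 0.345 through 0.461 to 13.3 CPM, where the highest was the liver with most muscle RNA. Without that liver, replicate 3, the log2 fold change in Cre mice was -9.08, and it was -3.85 with the uniquely mapped share as a covariate and -4.34 without the low-share chow libraries. In FLCN KO mice the change ranged from -9.27 to -7.81 in fits that left out 1 liver. On the canalicular side, the bile salt export pump *Abcb11* fell by 1.32 ± 0.15 and 1.08 ± 0.15, and the phospholipid carrier *Abcb4* rose by 0.49 ± 0.098 in Cre mice (adjusted p = 0.000238). Of the basolateral exporters, *Slc51b* rose from 1.22 ± 0.471 to 10.7 ± 5.03 CPM in Cre (3.10 ± 0.37) and by 2.53 ± 0.37 in FLCN KO mice, and *Abcc4* rose by 3.44 ± 0.44 and 1.60 ± 0.42. *Slc51a*, the partner of *Slc51b*, had at most 6 counts in any liver and was not tested. *Slc10a2*, the carrier of cholangiocytes and ileum, fell by 1.49 ± 0.48, a call lost with the uniquely mapped share as a covariate (-0.86, adjusted p = 0.181), and 1.87 ± 0.49, and on MCD was lower in FLCN KO livers (-1.78 ± 0.49, adjusted p = 0.0141). *Atp8b1*, a phospholipid flippase, was higher in FLCN KO livers on MCD (0.38 ± 0.12, adjusted p = 0.0288, in 18 of 22 fits that left out 1 liver).

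Of 12 tested genes known as FXR targets, other than *Nr0b2*, 5 rose and 4 fell in Cre mice and 4 rose and 5 fell in FLCN KO mice, with medians of 0.086 and 0.015. Falls and rises were about as many, as they are among all tested genes, and male livers alone gave 4 calls in place of 9 in each genotype. *Abcb11*, *Abcb4*, *Slc51b* and *Mafg* of this list are given above. *Apoc2*, an activator of lipoprotein lipase, rose by 1.90 ± 0.29 and 1.07 ± 0.29 and was lower in FLCN KO livers on MCD (-0.87 ± 0.27, adjusted p = 0.0318, in 17 of 22 fits that left out 1 liver). *Fetub*, a secreted protease inhibitor, fell by 1.61 ± 0.17 and 1.03 ± 0.16, the phospholipid transfer protein *Pltp* by 1.56 ± 0.37 and 1.21 ± 0.36, and *Cbs*, which takes homocysteine out of the methionine cycle, by 1.26 ± 0.15 and 1.18 ± 0.15. In the male livers alone *Pltp* was at -0.16 in Cre (adjusted p = 0.680) and -0.55 in FLCN KO mice (adjusted p = 0.152), which lost both calls. Of 10 enzymes that oxidize or conjugate bile acids, 5 fell and 2 rose in Cre mice and 4 fell and 2 rose in FLCN KO mice, with medians of -0.49 and -0.21. The share that fell was above that of all tested genes. *Sult2a8*, a bile acid sulfotransferase, fell by 4.04 ± 0.42 and 3.81 ± 0.39, *Papss2*, which makes the sulfate donor, by 1.65 ± 0.29 and 1.96 ± 0.28, and the glucuronosyltransferase *Ugt2b1* by 2.31 ± 0.37 and 1.93 ± 0.35, though *Ugt2b1* was at -1.18 and -1.20 with the uniquely mapped share as a covariate. In the male livers alone *Papss2* was at -0.86 and -1.13, and in the female livers alone at -2.26 and -2.30. *Gsta1*, a glutathione transferase with near-identical copies, rose by 4.93 ± 0.50 and 2.40 ± 0.48, with an interaction of -2.53 ± 0.71 (adjusted p = 0.0307), called in 18 of 22 fits that left out 1 liver. On chow it had 1 to 8 counts per liver in Cre and 2 to 18 in FLCN KO mice, so these values rest on few counts. The interaction was not called by limma-voom (adjusted p = 0.0909) or with the replicate block (edgeR, 0.0906). *Cyp3a25*, a monooxygenase, fell by 0.45 ± 0.13 in Cre and rose by 0.44 ± 0.13 in FLCN KO mice, and its interaction of 0.88 ± 0.18 (adjusted p = 0.00496) was called in 22 of 22 fits that left out 1 liver. *Sult2a8*, *Ugt2b1*, *Cyp3a25* and *Slco1a1* also have close copies in the genome, so their counts are uncertain.

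Markers of other liver cells moved with the diet, and some with genotype, beside these genes. In Cre mice on MCD 4 of 7 cholangiocyte markers rose (summed level from 67.2 ± 21.4 to 149 ± 25.2 CPM, led by *Spp1*). In FLCN KO mice 0 of 7 passed, and 0 had an unadjusted p under 0.05, at 126 ± 48.3 and 122 ± 22.3 CPM. In Cre mice 5 of 7 stellate cell markers rose (312 ± 73.3 to 548 ± 110.4 CPM, led by *Dcn*), against 1 in FLCN KO mice (343 ± 60.5 to 405 ± 34.9 CPM). Of 7 macrophage markers, led by *Cd5l*, 3 rose and 1 fell in Cre mice (523 ± 86.6 to 691 ± 141 CPM), and 0 rose and 3 fell in FLCN KO mice (595 ± 78.9 to 490.2 ± 151 CPM). All 3 tested neutrophil markers, led by *S100a9*, rose in both, from 3.50 ± 2.25 to 27.1 ± 17.1 CPM in Cre and from 4.12 ± 1.78 to 15.1 ± 5.25 CPM in FLCN KO mice. Of 6 endothelial markers, led by *Stab2*, 3 fell and 1 rose in Cre mice and 4 fell in FLCN KO mice, with summed levels of 206 ± 43.7, 164 ± 20.5, 248 ± 29.6 and 192 ± 9.78 CPM in Cre Chow, Cre MCD, FLCN KO Chow and FLCN KO MCD livers. Of 6 lymphocyte markers, led by *Cd3g*, 0 passed in Cre, as at an unadjusted p under 0.05, and 4 fell in FLCN KO mice, with summed levels of 4.52 ± 2.08, 4.48 ± 1.48, 8.20 ± 1.07 and 3.88 ± 1.07 CPM in the same order. Of 6 ileal markers, *Fgf15*, *Fabp6* and *Reg3b* were at 3 counts or fewer in every liver, *Slc10a2* was the most abundant, and of 3 tested 1 rose and 1 fell in Cre and 2 rose and 1 fell in FLCN KO mice. All 6 muscle markers, led by *Acta1*, were called higher on MCD in Cre mice, where replicates 3, 4 and 1 exceeded every chow liver in their sum, and 0 passed in FLCN KO mice, with 0 at an unadjusted p under 0.05. Between genotypes on chow, 2 of 7 cholangiocyte markers and 1 of 6 endothelial markers were higher in FLCN KO livers, and 0 macrophage, stellate, neutrophil, lymphocyte, muscle or ileal markers were called. On MCD, 3 of 7 macrophage, 3 of 7 stellate, all 6 muscle and 1 of 3 ileal markers were lower in FLCN KO livers, 2 of 7 cholangiocyte markers were higher and 1 lower, and 1 endothelial marker was higher, where 8.06% of all tested genes were higher and 8.53% lower. The interaction was called, with a negative value, for 3 of 7 macrophage, 2 of 7 stellate and 1 of 7 cholangiocyte markers. Over all tested genes 5.54% were called negative. By sign alone, called or not, it was negative for 6 macrophage, 7 stellate and 5 cholangiocyte markers. The same held for all 6 lymphocyte, 3 neutrophil and 6 muscle markers, 4 of 6 endothelial and 1 of 3 ileal markers. The part of these cells in the levels of the bile acid genes was not tested.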

How the data were processed

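Liver mRNA of 22 mice was sequenced. Per the submitters' processing notes, the authors used bcl2fastq, Trimmomatic, STAR and HTSeq on GRCm38, whose versions are not given in the sources used here, and deposited raw counts per gene. Handling of molecular identifiers in these counts is not given in the sources used here. Counts were tested with edgeR 4.0.16 in R 4.3.3 (TMM, quasi-likelihood, Benjamini-Hochberg, threshold 0.05) in 1 fit of the 4 groups over the 14062 genes whose counts averaged 10 or more. SE is the log2 fold change divided by the square root of F. The test was checked on simulated data. Gene positions and exonic lengths came from GENCODE. The members and lists were chosen with earlier results of these data known. Named were the members, per list and comparison the 3 called genes with the largest change, preset core regulators, and for 3 members the 5 genes most correlated with each. One item that this rule names is not reported here. Alternatives were limma-voom (limma 3.58.1), DESeq2 1.42.0, other scalings and filters, covariates, fewer libraries and a replicate block. Sex was read from *Xist* and Y-linked counts. Libraries held 13751347 to 21144388 counts, which limits the precision of low genes.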

Additional observations from a re-analysis of the deposited data

Results flagged for a closer look

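Some livers stood apart from their group by Dixon's test, which chance gives in about 1 in 20 groups, and 10 of 202 groups did so here (4.95%). Cre MCD replicate 3, the liver with most muscle RNA, was highest in its group for *Nr0b2* (21.2 CPM), *Ppargc1a* (31.3 CPM), *Egfr* (84.0 CPM), *Slco1a1* (13.3 CPM), *Sult2a8* (132 CPM) and *Nr5a2* (63.7 CPM). Cre Chow replicate 6, the liver highest in *Dbp*, stood apart for *Stard4* (212 CPM) and *Onecut1* (39.1 CPM). FLCN KO MCD replicate 4 stood apart for *Slco1a1* (2.49 CPM) and FLCN KO Chow replicate 3 for *Mafg* (61.0 CPM).

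The diet response differed between the genotypes, by the test of the interaction, for *Cyp46a1* (1.80), *Klb* (1.00), *Tnfrsf1a* (-0.42), *Slc10a1* (1.06), *Cyp3a25* (0.88) and *Gsta1* (-2.53), all as log2 values. For *Cyp46a1* it was called in 8 of 22 fits that left out 1 liver and was 0.35 in male livers alone (edgeR, adjusted p = 0.902). For *Gsta1*, at 18 counts or fewer in every chow liver, it was called in 18 of 22 such fits. With the replicate block the interaction was not called for *Cyp46a1*, *Klb*, *Tnfrsf1a*, *Slc10a1* and *Gsta1*. In male livers alone none of the interactions named here was called. The diet response differed between male and female livers for *Cyp7b1* (-2.07) and *Akr1d1* (0.96), in the 8-group fit added after seeing the data, where sex on chow cannot be told apart from the uniquely mapped share. The part of muscle RNA, time of day and depth in these values was not tested.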

How the results depend on the processing

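Over the alternatives, 7 to 9 of the 10 genes were called in Cre and 7 to 8 in FLCN KO mice for MCD against chow, and 0 for FLCN KO against Cre on chow. Leaving out 1 liver gave 9 in Cre, 7 to 8 in FLCN KO, 0 to 1 for the genotypes on MCD and 0 to 1 for the interaction, and female livers alone gave 3 for each of the latter comparisons. *Flcn* on chow was not called without the low-share chow libraries (-0.55), with the replicate block (-0.57), by library size alone (-0.48), in female (-0.55) or male livers (-0.69), and ranged from -0.70 to -0.56 without 1 liver. On MCD it turned to 0.24 in female livers. Uncalled values changed sign as follows, and the cause was not tested. *Cyp7a1* in Cre mice on MCD turned to 0.049 by limma-voom, 0.078 with the uniquely mapped share, 0.022 without the low-share libraries, 0.12 with the block, 0.35 by library size and 0.0067 in female livers, and without 1 liver ranged from -0.24 to 0.19. *Nr0b2* in FLCN KO mice on MCD turned to 0.39 in female livers. On chow between genotypes, *Nr0b2* was at 0.0013 by library size, 0.099 in male livers and -0.34 to 0.084 without 1 liver, *Cyp7a1* at -0.082 to 0.38 without 1 liver, and *Hsd3b7* at -0.020 without the low-share libraries, -0.017 in female livers and -0.032 to 0.12 without 1 liver. Between genotypes on MCD, male livers gave -0.30 (*Cyp8b1*), -0.12 (*Nr1h4*), -0.44 (*Nr0b2*), -0.11 (*Slc27a5*), -0.22 (*Akr1d1*) and -0.11 (*Hsd3b7*), female livers 0.041 (*Cyp7b1*), and fits without 1 liver -0.11 to 0.31 (*Cyp8b1*) and -0.044 to 0.29 (*Akr1d1*). In the interaction, male livers gave -0.19 (*Cyp8b1*), -0.35 (*Cyp7b1*), -0.54 (*Nr0b2*) and -0.26 (*Hsd3b7*), *Cyp7b1* was at -0.83 with the uniquely mapped share, -0.43 without the low-share libraries and -0.37 to 0.90 without 1 liver, and *Hsd3b7* at -0.093 by library size and -0.017 to 0.14 without 1 liver. By library size, the called values of *Nr1h3* and *Rxra* in Cre mice on MCD turned to 0.13 and 0.031. Of the other named genes, calls for MCD against chow were lost in male livers alone, with these log2 values, for *Klb* (-0.55), *Apoc2* (1.21), *Cyp3a25* (-0.46), *Nr5a2* (-0.35), *Nr1h3* (-0.32), *Rxra* (-0.46), *Mafg* (0.37) and *Abcb4* (0.23) in Cre and for *Cyp46a1* (0.52), *Nfil3* (-1.82), *Tnfrsf1a* (0.38), *Apoc2* (1.19), *Cyp3a25* (0.31), *Nr5a2* (-0.30), *Rxra* (-0.44) and *Mafg* (0.53) in FLCN KO mice, and between genotypes on MCD for *Stard4* (-0.95), *Ppargc1a* (0.79), *Fgf21* (-1.31), *Slc10a1* (0.33), *Slc10a2* (-1.63), *Atp8b1* (0.45), *Apoc2* (-0.19), *Gsta1* (-1.09) and *Cyp3a25* (0.40). Female livers alone lost those of *Nr1h3* (-0.28), *Rxra* (-0.25) and *Cyp3a25* (-0.40) in Cre and of *Nr1h3* (-0.31) in FLCN KO mice, and between genotypes on MCD of *Slc10a1* (0.90) and *Atp8b1* (0.34). Interactions were lost with the replicate block for *Cyp46a1*, *Klb*, *Tnfrsf1a*, *Slc10a1* and *Gsta1* and in male livers for these and *Cyp3a25*, at 1.03 for *Klb* and 0.77 for *Cyp3a25*. Of 47 called values of members and named genes for MCD against chow in Cre mice, 12 moved by over 1.5 times in fold with the uniquely mapped share, 9 without the low-share libraries, 8 in female and 7 in male livers, and of 42 in FLCN KO mice 5, 5, 8 and 11, against at most 1 with any other alternative except those that left out 1 liver. With the uniquely mapped share, those in Cre mice not given above were *Cyp8b1* (-0.96), *Cyp39a1* (0.74), *Abcc4* (2.63), *Pltp* (-2.22), *Sult2a8* (-3.34) and *Papss2* (-2.26). Male livers alone gave larger values for *Abcc4* in FLCN KO (2.82) and *Gsta1* in Cre mice on MCD (6.19) and for *Cyp46a1* between genotypes on chow (5.81), and *Slco1a1* in FLCN KO mice was at -6.52 with the uniquely mapped share. The fold of *Cyp46a1* on chow also moved by over 1.5 times without the low-share libraries and in female livers, and its lowest log2 value was 3.615. By library size alone the calls of *Nr5a2*, *Hnf4a* and *Cyp3a25* in Cre mice and of *Nr5a2*, *Nr1h3*, *Rxra*, *Foxa2* and *Scp2* in FLCN KO mice for MCD against chow were lost, and with the uniquely mapped share those of *Rxra* in both genotypes. By their mean, replicate numbers did not pair the mice (mean correlation of deviations -0.084 to 0.129). Between genotypes on chow single pairs ranged from -0.551 to 0.470, positive where both livers were of the same sex and negative where they were not. With the replicate block the counts of called members were 9, 7, 0, 0 and 0 as without it. Calls over all tested genes moved by over 1.5 times on chow between genotypes, from 1212 to 495 without the low-share libraries, 627 in female and 335 in male livers and 669 without FLCN KO Chow replicate 4. For the interaction they moved from 1242 to 783 without the low-share libraries, 552 with the replicate block, 63 in male livers, 817 without Cre MCD replicate 1 and 813 without FLCN KO Chow replicate 4. Male livers alone gave 720 in place of 2333 between genotypes on MCD, 4685 in place of 8089 for the diet in Cre and 2905 in place of 6328 in FLCN KO mice. Fits by library size alone, in 1 sex and in 8 groups were chosen after seeing the data.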
